A study of Mus musculus with 9 samples.

Results

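The genes described here drive cells through the division cycle: 18 genes of DNA replication and its start (S phase) and 22 genes of mitosis and its approach (G2/M), chosen by name. All 40 were found among the 54456 genes of the deposited count table, and all 40 passed the filter on low counts. They were measured by RNA sequencing of mouse skin in 9 libraries in 3 groups of 3. The loaded-device group was lesional skin given microneedles that carried IL-2, a growth factor of T cells, together with CCL22, a chemokine for cells with the receptor CCR4. The empty-device group was lesional skin given microneedles without that load, and the untreated group was lesional skin that received no device. All 3 groups were such lesions, which the study, on an immune-mediated alopecia, calls AA-like. No label gives strain, age, sex, the way the lesions were induced or the interval between treatment and sampling.

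A dividing cell copies its DNA in S phase and then separates the copies in mitosis. The MCM proteins form the ring-shaped helicase that opens DNA at replication origins, whereas cyclin B, CDK1 and the mitotic kinases build and operate the spindle. Transcription of the replication genes is released by E2F factors late in G1. Transcription of the mitotic genes follows later through a promoter element called the cell cycle homology region (CHR), often beside CCAAT boxes, with B-MYB and FOXM1 as activators. In skin, most division takes place in the hair matrix at the base of a growing follicle and in the basal layer of the epidermis. Whole skin was sequenced, so fewer dividing cells and less of an RNA per dividing cell cannot be told apart.

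Total counts ran from 85962714 to 96740589 per library. Squared differences between libraries of 1 group had a median of 1.89 to 3.96 times counting noise, against 10.99 to 25.8 times between groups. Nothing in the labels ties a library to its own animal, so p-values here rest on library-to-library spread alone and that spread may be technical. Mitochondrial transcripts made up 3.83 ± 0.0622% of counts with the loaded device, 3.37 ± 0.0544% with the empty device and 4.62 ± 0.0891% untreated (mean ± SD, n = 3 libraries each). The labels name no batch. Levels are given in CPM, counts divided by the scaled library size. Reads in introns were counted, so levels are compared between groups and not between genes.

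Promoters of the members are shown first, since the sequence elements searched in them differ between the replication and the mitosis genes. RefSeq windows in the GRCm38.p6 build, which reach from 250 bases before to 50 bases after the start of a gene, were matched for 32 of the 40 members (34 windows, 17 for each phase, Mcm7 and Uhrf1 having 2 each). No window was matched for Mcm4, Gins2, Ccne2, Ccna2, Foxm1, Aurkb, Kif20a and Tpx2. For S phase the E2F motif TTCCCGC was searched on both strands together with its variants, TTGGCGC being one and TTCGCGC the other. Printed 5′ to 3′, with the matches in capitals, are the window with the most matches, Mcm6, and 1 of the next 3, Mcm5.
Mcm6 (chr1:128359656-128359955, minus strand): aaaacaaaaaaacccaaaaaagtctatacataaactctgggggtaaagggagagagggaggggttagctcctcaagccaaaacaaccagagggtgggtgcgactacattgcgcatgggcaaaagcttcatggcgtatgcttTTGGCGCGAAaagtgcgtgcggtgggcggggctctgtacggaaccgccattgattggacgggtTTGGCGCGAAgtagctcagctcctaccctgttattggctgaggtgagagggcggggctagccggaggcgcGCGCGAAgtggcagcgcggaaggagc
Mcm5 (chr8:75109259-75109558, plus strand): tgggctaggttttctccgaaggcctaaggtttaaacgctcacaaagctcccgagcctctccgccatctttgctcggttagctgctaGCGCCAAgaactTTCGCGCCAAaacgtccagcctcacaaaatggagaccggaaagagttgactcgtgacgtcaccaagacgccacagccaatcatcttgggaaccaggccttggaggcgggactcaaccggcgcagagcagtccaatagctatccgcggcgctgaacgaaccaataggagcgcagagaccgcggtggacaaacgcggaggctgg
Matches can overlap, and each start position was counted: Mcm6 held 5 and Mcm5 held 3.

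For G2/M the CHR motif TTTGAA, its variant with C in the third place (TTCGAA), and the CCAAT box were searched in the same way. Printed next, with matches in capitals, are the windows with the most matches, those of Top2a and Ube2c, and that of Mki67, the gene of the proliferation marker Ki-67.
Top2a (chr11:99024140-99024439, minus strand): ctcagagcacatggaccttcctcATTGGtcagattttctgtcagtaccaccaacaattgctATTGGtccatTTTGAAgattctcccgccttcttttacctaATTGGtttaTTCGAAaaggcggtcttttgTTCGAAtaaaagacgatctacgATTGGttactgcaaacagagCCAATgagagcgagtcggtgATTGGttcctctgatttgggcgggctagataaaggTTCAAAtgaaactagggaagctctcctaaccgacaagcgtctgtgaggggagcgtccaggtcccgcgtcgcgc
Ube2c (chr2:164769679-164769978, plus strand): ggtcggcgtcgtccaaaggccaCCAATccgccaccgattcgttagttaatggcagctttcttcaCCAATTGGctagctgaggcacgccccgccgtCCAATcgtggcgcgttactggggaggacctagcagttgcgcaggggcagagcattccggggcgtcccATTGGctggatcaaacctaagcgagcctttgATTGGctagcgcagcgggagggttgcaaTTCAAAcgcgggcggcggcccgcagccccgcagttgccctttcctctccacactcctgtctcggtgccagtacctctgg
Mki67 (chr7:135716330-135716629, minus strand): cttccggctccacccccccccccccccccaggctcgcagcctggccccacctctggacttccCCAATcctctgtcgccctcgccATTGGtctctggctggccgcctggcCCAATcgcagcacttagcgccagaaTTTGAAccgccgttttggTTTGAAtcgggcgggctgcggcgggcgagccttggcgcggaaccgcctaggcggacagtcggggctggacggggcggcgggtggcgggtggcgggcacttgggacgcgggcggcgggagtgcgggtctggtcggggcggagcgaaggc
Top2a held 4 CHR motifs and 6 CCAAT boxes, Ube2c 1 and 6, and Mki67 2 and 3.

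An E2F motif was found in 10 of 17 S phase windows (58.8%), in 3 of 17 G2/M windows (17.6%) and in 10.4% of the 21263 windows of protein-coding genes. A CHR motif was found in 13 of 17 G2/M windows (76.5%), in 3 of 17 S phase windows (17.6%) and in 17.6% of windows of protein-coding genes. CCAAT boxes were in 15 of 17 G2/M windows, 12 of 17 S phase windows and 38.2% of windows of protein-coding genes. Over all 32851 windows the shares were 8.07%, 19.2% and 37.4% for E2F, CHR and CCAAT. A match describes these letters only and does not show that a factor binds there.

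All 40 cell cycle genes were lower under the empty device than in untreated lesions, and higher under the loaded device than under the empty one. Between the empty device and untreated skin, all 18 S phase members and all 22 G2/M members fell, where edgeR called 48.3% of the 26081 tested genes, 28.1% lower and 20.2% higher. The S phase count was 15 with library size alone, with upper-quartile scaling and without empty-device library 3, where Cdt1, E2f1 and Rrm2 did not pass. The median log2 fold change was -0.55 for S phase and -0.81 for G2/M, against -0.016 over all tested genes. Between the loaded and the empty device, all 18 and all 22 rose, where 22.9% of all tested genes were called higher. These medians were 0.49 for S phase and 0.61 for G2/M, against 0.015 over all tested genes. The comparisons share libraries, so their values are set side by side and not counted as separate evidence.

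Between the loaded device and untreated skin the members divided. Of the 18 S phase members, 5 rose, 7 fell and 6 did not pass, and of the 22 G2/M members, 4 rose, 11 fell and 7 did not pass. Of all tested genes, 42.3% were called in this comparison. Members that rose made up 22.5% of the 40, close to the 19.0% of all tested genes called higher. Members that fell made up 45%, against 23.3% of all tested genes. Of the tested genes, 16806 averaged at least 1 CPM, as all 40 members did, and the rest are less readily called. A stricter filter of 1 CPM in 3 libraries called 5190 genes higher and 5505 lower. Shares among genes as abundant as the members were not computed. The medians were small, at -0.030 for S phase and -0.10 for G2/M, against -0.014 over all tested genes. Scaled by library size alone, these medians became 0.10 and 0.032, and 8 S phase and 9 G2/M members were called higher. Of the 26081 tested genes, 8487 were called higher with that scaling. The count of 4 G2/M members called higher became 2 without loaded-device library 2.

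The libraries of a group seldom overlapped with those of another. With the loaded device, 40 of 40 members lay above every empty-device library, where 28.1% of all tested genes did and 22.7% lay below. For the empty device, 39 of 40 lay below every untreated library, where 31.1% did, Aurkb being the exception. Loaded-device levels of 13 of 40 members lay above, and of 19 below, every untreated library (32.5% and 47.5%), where 24.6% and 28.1% of all tested genes did.

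**Figure D1:**
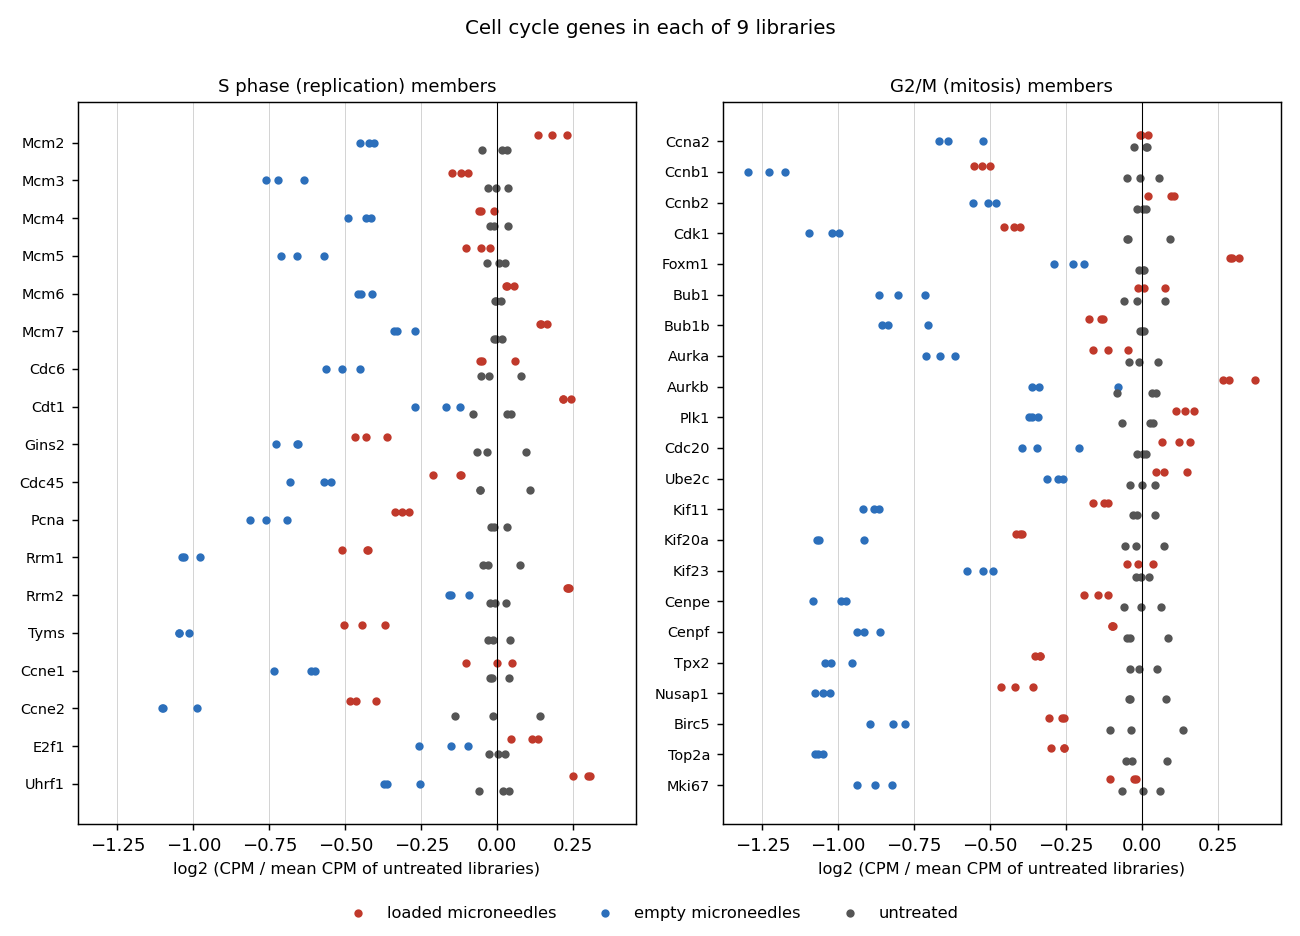
Level of each member in each library, as log2 of its CPM over the mean CPM of the 3 untreated libraries (x axis), with a row per gene and a point per library; red marks the loaded device, blue the empty device and grey untreated skin. The blue points lie left of the red points in all 40 rows, and the red points lie on either side of the grey ones.

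The MCM2 to MCM7 genes encode the subunits of the replicative helicase. Mcm2 stood at 38.5, 37.2 and 35.99 CPM in the loaded-device libraries, 24.5, 24.8 and 23.99 CPM in the empty-device libraries and 31.7, 33.6 and 33.2 CPM in the untreated libraries. The 3 groups did not overlap, with the loaded device highest and the empty device lowest. Against untreated skin Mcm2 rose with the loaded device (0.18 ± 0.038 as log2 fold change with its SE, edgeR adjusted p = 2.92e-04) and fell with the empty one (-0.43 ± 0.039, adjusted p = 2.79e-10).

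Mcm3, which encodes another subunit of the ring, stood at 34.9, 35.5 and 34.2 CPM in the loaded-device libraries, 22.3, 24.4 and 22.99 CPM in the empty-device libraries and 38.8, 37.8 and 37.1 CPM in the untreated libraries. Its groups did not overlap either, but the untreated libraries were highest. Against untreated, Mcm3 changed by -0.12 ± 0.038 for the loaded device and -0.70 ± 0.039 for the empty one. The loaded-device call (edgeR adjusted p = 0.0114) was lost with no filter (adjusted p = 0.0630) and without loaded-device library 3 (adjusted p = 0.0584), and library size alone turned its sign (log2 fold change 0.012). Mcm7 had 55.2, 54.5 and 54.4 CPM with the loaded device, 39.3, 40.9 and 38.98 CPM with the empty device and 49.9, 49.01 and 49.1 CPM untreated. Like Mcm2 it lay highest with the loaded device, at 0.15 ± 0.033 against untreated.

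Mcm5 read 56.9, 58.1 and 55.1 CPM with the loaded device, 37.5, 39.8 and 36.1 CPM with the empty device and 57.8, 59.4 and 60.2 CPM untreated. The loaded-device and untreated libraries overlapped, and both lay above the empty-device ones. The remaining subunits Mcm4 and Mcm6 changed by 0.40 and 0.48 with the loaded against the empty device and by -0.45 and -0.44 with the empty device against untreated. Over the 6 subunits the log2 fold changes ran from 0.40 to 0.61 between the devices, and from -0.70 to -0.31 for the empty device against untreated. Against untreated skin, 2 subunit genes rose with the loaded device, 1 fell and 3 did not pass, where 19.0% of all tested genes were called higher and 23.3% lower. The 1 that fell was Mcm3, with the lost calls given above.

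CDC6 and CDT1 load the helicase onto DNA, and CDC45 with the GINS complex, of which GINS2 is a subunit, switches it on. Cdt1 had 12.1, 11.9 and 11.9 CPM with the loaded device, 9.12, 9.40 and 8.49 CPM with the empty device and 9.70, 10.6 and 10.5 CPM untreated. It was highest with the loaded device (0.22 ± 0.057 against untreated, edgeR adjusted p = 0.00189), and its fall with the empty device was among the smallest (-0.19 ± 0.058). That fall was not called with library size alone, with upper-quartile scaling or without empty-device library 3 (log2 fold changes of -0.083, -0.12 and -0.11). With an offset for GC content given further on, it was larger (-0.30) and called.

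Gins2 had 8.27, 8.89 and 8.49 CPM with the loaded device, 6.90, 7.27 and 7.25 CPM with the empty device and 12.2, 10.9 and 11.2 CPM untreated. The untreated libraries were highest here, and the loaded-device libraries stood nearer to the empty-device ones, with log2 fold changes of -0.42 ± 0.060 for the loaded device against untreated and 0.26 ± 0.062 for the loaded against the empty device. Gse1, with 106531 counts in all, overlaps 25.8% of Gins2 on the other strand, so part of the 7299 counts of Gins2 may belong to it. Cdc6 and Cdc45 rose with the loaded against the empty device (0.49 and 0.45) and fell with the empty device against untreated (-0.51 and -0.60). With the loaded device against untreated, Cdc6 did not pass (-0.016 ± 0.061) and Cdc45 was lower (-0.15 ± 0.055, edgeR adjusted p = 0.0281). Leaving out loaded-device library 2 (-0.12) or untreated library 1 (-0.094) ended the Cdc45 call, as did library size alone (-0.017), no filter (-0.14), DESeq2's Wald test (-0.14) and an offset for GC content given further on (-0.12).

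PCNA is the sliding clamp of the replicating polymerases. Pcna stood at 70.8, 69.7 and 68.6 CPM in the loaded-device libraries, 49.3, 53.6 and 51.1 CPM in the empty-device libraries and 88.6, 85.97 and 85.4 CPM in the untreated libraries. Its groups did not overlap, untreated skin being highest and the empty device lowest (-0.31 ± 0.033 for the loaded device and -0.75 ± 0.034 for the empty one against untreated). The pseudogene Pcna-ps2 carried 12225 counts in all, against 55856 for Pcna, so how reads divide between them is uncertain. Pcna lies on chromosome 2 from 132091082 to 132095234 in mm39.

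RRM1 and RRM2 are the large and small subunits of ribonucleotide reductase, which makes the DNA building blocks, and these genes differed in their response. Rrm1 stood at 99.8, 99.7 and 94.1 CPM in the loaded-device libraries, 65.3, 68.1 and 65.6 CPM in the empty-device libraries and 141, 131 and 129.8 CPM in the untreated libraries. Untreated skin was far the highest, and both devices lay below it (-0.45 ± 0.035 for the loaded device and -1.01 ± 0.036 for the empty one). Rrm2, in contrast, stood at 52.02, 51.7 and 51.8 CPM in the loaded-device libraries, 39.7, 41.4 and 39.6 CPM in the empty-device libraries and 43.5, 43.9 and 45.05 CPM in the untreated libraries. Here the loaded device was highest (0.23 ± 0.034 against untreated, edgeR adjusted p = 1.63e-06), and the empty device was only slightly below untreated skin (-0.13 ± 0.034, adjusted p = 0.00152). That fall was not called with library size alone, with upper-quartile scaling, in a fit of just these 2 groups or without empty-device library 3 (-0.030, -0.063, -0.10 and -0.081), and after the GC offset it was 0.00071.

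The log2 ratio of Rrm2 to Rrm1 counts was -0.94, -0.95 and -0.86 with the loaded device, -0.72, -0.72 and -0.73 with the empty device and -1.70, -1.58 and -1.53 untreated. Libraries of either device did not overlap with untreated ones in this ratio (differences of 0.69 for the loaded and 0.88 for the empty device). Exact two-sided permutation tests gave p = 0.1, the smallest that 3 libraries against 3 allow, and 0.12 adjusted over the 12 comparisons of 4 gene pairs. The 4 pairs were chosen after their values were seen. These p-values were therefore fixed once the groups were seen not to overlap, and they add no support. The adjustment covers only the pairs chosen. Tyms, the gene of thymidylate synthase, had 22.1, 20.98 and 20.1 CPM with the loaded device, 13.8, 14.1 and 13.8 CPM with the empty device and 29.4, 27.97 and 28.3 CPM untreated. It followed the order of Rrm1, with log2 fold changes of -0.44 ± 0.044 for the loaded device and -1.04 ± 0.045 for the empty one against untreated. Tyms-ps, a pseudogene, held 1149 counts in all against 17032 for Tyms.

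Cyclin E, encoded by Ccne1 and Ccne2, activates CDK2 at the entry into S phase. Ccne2 had 11.6, 12.3 and 11.7 CPM with the loaded device, 7.55, 8.16 and 7.54 CPM with the empty device and 17.8, 16.02 and 14.7 CPM untreated. The groups did not overlap, and untreated skin was highest. Its log2 fold changes were -0.45 ± 0.060 for the loaded device and -1.06 ± 0.063 for the empty one against untreated. Ints8, on the other strand, overlaps 41.9% of Ccne2 and carried 35852 counts in all, against 9579 for Ccne2; Ints8 itself changed by -0.22 and -0.50 in the same comparisons. Ccne1 had 6.72, 6.50 and 6.05 CPM with the loaded device, 4.26, 4.29 and 3.91 CPM with the empty device and 6.68, 6.39 and 6.43 CPM untreated. The loaded-device and untreated libraries overlapped (-0.018 ± 0.070, edgeR adjusted p = 0.870), and the empty-device ones lay below both (-0.65 ± 0.073 against untreated). The log2 ratio of Ccne1 to Ccne2 stood 0.43 higher for the loaded and 0.41 higher for the empty device than untreated (exact permutation p = 0.1 each, 0.12 adjusted over the 12). This pair, too, was chosen after its values were seen. These genes differ in GC content (52.7% and 36.3%), and with the GC offset they lay closer together. Ccne1 and Ccne2 then changed by -0.012 and -0.22 for the loaded device and by -0.64 and -0.71 for the empty one.

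E2f1 encodes the founding E2F factor, and Uhrf1 a protein that carries DNA methylation over to the new strand. E2f1 had 9.83, 10.5 and 10.3 CPM with the loaded device, 8.57, 8.91 and 7.96 CPM with the empty device and 9.35, 9.54 and 9.69 CPM untreated. Its fall with the empty device was small (-0.17 ± 0.059, edgeR adjusted p = 0.0204). It was not called under DESeq2, library-size or upper-quartile scaling, no filter, a stricter one, DESeq2's Wald test or a fit of just these 2 groups. Nor was it without empty-device library 3 (-0.083) or untreated library 3 (-0.16), and these log2 fold changes ran from -0.16 to -0.064. With the GC offset, in contrast, the fall of E2f1 was larger (-0.27) and called. Uhrf1 had 45.5, 45.2 and 43.7 CPM with the loaded device, 28.4, 30.9 and 28.6 CPM with the empty device and 35.3, 37.3 and 37.8 CPM untreated. The loaded device was highest and the empty device lowest, with no overlap (0.28 ± 0.039 and -0.33 ± 0.039 against untreated).

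Among the mitotic genes, Ccna2, Ccnb1 and Ccnb2 encode cyclins A2, B1 and B2, which bind the kinase encoded by Cdk1. Ccnb1 stood at 24.1, 23.7 and 23.3 CPM in the loaded-device libraries, 14.6, 15.1 and 13.9 CPM in the empty-device libraries and 35.4, 33.9 and 32.97 CPM in the untreated libraries. The empty device had the lowest log2 fold change of all 40 members against untreated (-1.23 ± 0.044, edgeR adjusted p = 3.42e-18), and the loaded device lay between (-0.53 ± 0.042). Ccnb2 stood at 24.7, 26.01 and 26.2 CPM in the loaded-device libraries, 17.5, 17.1 and 16.6 CPM in the empty-device libraries and 24.6, 24.4 and 24.1 CPM in the untreated libraries. Its loaded-device libraries lay just above the untreated ones without passing the test (0.074 ± 0.041, adjusted p = 0.162), and it fell with the empty device (-0.51 ± 0.043). The rise of Ccnb2 with the loaded device was called with library size alone (0.21) and after the GC offset (0.10). The Ccnb2 to Ccnb1 log2 ratio was 0.038, 0.14 and 0.17 with the loaded device, 0.26, 0.18 and 0.26 with the empty device and -0.53, -0.47 and -0.45 untreated. Libraries of either device thus lay above the untreated ones (exact permutation p = 0.1 for each, the smallest possible, 0.12 adjusted over the 12). As this pair was chosen after its values were seen, the p-values add no support. The pseudogene Ccnb1-ps carried 1586 counts in all against 19318 for Ccnb1.

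Cdk1 had 33.8, 34.2 and 32.98 CPM with the loaded device, 21.2, 22.6 and 22.3 CPM with the empty device and 48.1, 43.7 and 43.8 CPM untreated. Its order was that of Ccnb1, with -0.42 ± 0.040 for the loaded device and -1.04 ± 0.042 for the empty one against untreated. Ccna2 had 59.6, 59.9 and 60.7 CPM with the loaded device, 38.5, 41.7 and 37.7 CPM with the empty device and 60.7, 58.8 and 60.4 CPM untreated. The loaded-device and untreated libraries overlapped (0.0023 ± 0.036, edgeR adjusted p = 0.968), and the empty device was lower (-0.61 ± 0.036). With library size alone, Ccna2 was called higher with the loaded device than untreated (0.14). Exosc9 overlaps 11.8% of Ccna2 on the other strand and carried 20583 counts in all, against 43002 for Ccna2. Exosc9 itself changed by -0.46 for the loaded and -0.69 for the empty device against untreated, and by 0.22 between the devices.

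Foxm1 encodes a transcription factor that activates G2/M genes. It stood at 26.8, 26.9 and 27.3 CPM in the loaded-device libraries, 19.2, 18.7 and 17.9 CPM in the empty-device libraries and 21.7, 21.96 and 22.03 CPM in the untreated libraries. The loaded device was highest and the empty device lowest, with no overlap (0.30 ± 0.041 and -0.24 ± 0.042 against untreated). Its fall with the empty device was smaller than the G2/M median of -0.81.

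PLK1 and the Aurora kinases drive entry into mitosis and the attachment of chromosomes, and BUB1 and the product of Bub1b hold the spindle checkpoint. Bub1 had 22.1, 23.2 and 21.8 CPM with the loaded device, 12.6, 13.4 and 12.1 CPM with the empty device and 23.2, 21.1 and 21.8 CPM untreated. Empty-device libraries were lowest (-0.79 ± 0.050 against untreated), while loaded-device and untreated libraries overlapped (0.024 ± 0.048, edgeR adjusted p = 0.744). Bub1 was called higher with the loaded device than untreated with library size alone (0.16) and after the GC offset (0.17). Bub1b changed by -0.15 ± 0.038 with the loaded device and by -0.80 ± 0.039 with the empty device against untreated, and the loaded-device call was lost with library size alone (-0.013).

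Aurkb had 19.7, 18.3 and 18.5 CPM with the loaded device, 11.8, 14.4 and 12.02 CPM with the empty device and 14.3, 15.7 and 15.5 CPM untreated. One empty-device library reached the range of the untreated ones, the only such overlap among the 40 members, and the fall with the empty device still passed (-0.25 ± 0.063, edgeR adjusted p = 0.00166). With the loaded device Aurkb rose against untreated (0.31 ± 0.061, adjusted p = 2.24e-04), the highest log2 fold change of the 40 members in that comparison. Aurka did not pass with the loaded device (-0.11 ± 0.051, adjusted p = 0.0975) and fell with the empty device (-0.66 ± 0.052). The log2 ratio of Aurkb to Aurka, again a pair chosen after its values were seen, stood 0.42 higher for the loaded device than untreated. It stood 0.40 higher for the empty device (exact permutation p = 0.1 each, 0.12 adjusted over the 12). Plk1 had 23.97, 24.5 and 23.5 CPM with the loaded device, 16.9, 17.1 and 16.8 CPM with the empty device and 20.8, 22.1 and 22.3 CPM untreated. It was highest with the loaded device (0.14 ± 0.043 against untreated), a call that ended when loaded-device library 2 (0.13, edgeR adjusted p = 0.0525) or untreated library 1 (0.11, adjusted p = 0.0517) was left out.

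CDC20 activates the ubiquitin ligase that ends mitosis, and UBE2C is its ubiquitin-conjugating enzyme. Both fell less with the empty device than the G2/M median of -0.81. Cdc20 averaged 33.96 ± 1.11 CPM with the loaded device, 25.2 ± 1.72 CPM with the empty device and 31.3 ± 0.307 CPM untreated (mean ± SD, n = 3 each). Its log2 fold changes were 0.12 ± 0.043 for the loaded device and -0.31 ± 0.043 for the empty one against untreated. The loaded-device call ended on leaving out either of loaded-device libraries 1 and 2 (0.093 and 0.11) or either of untreated libraries 2 and 3 (0.12 and 0.11), and after the GC offset (0.086). Ube2c had 31.5, 33.9 and 32.2 CPM with the loaded device, 24.6, 25.3 and 25.6 CPM with the empty device and 29.7, 31.5 and 30.6 CPM untreated. It did not pass with the loaded device against untreated (0.089 ± 0.039, edgeR adjusted p = 0.0719), but did so, higher, under 6 alternatives. The muscle gene Tnnc2, on the other strand, overlaps 18.6% of Ube2c and carried 462456 counts in all against 23913. Tnnc2 changed by -0.70 with the loaded against the empty device and by 0.43 with the empty device against untreated, opposite in sign to Ube2c (0.37 ± 0.039 and -0.28 ± 0.040).

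Spindle and kinetochore genes fell together. These 8 members had a median log2 fold change of -0.96 with the empty device against untreated, all 8 falling. Against untreated, 7 of the 8 also fell with the loaded device (median -0.21) and none rose, where 23.3% of all tested genes were called lower. With an offset for GC content given further on, 4 of the 8 fell there, Kif11, Cenpe and Cenpf losing their calls. That fit called 5492 of the 26081 tested genes lower. Tpx2, which encodes a nucleator of spindle microtubules, stood at 49.3, 49.96 and 49.9 CPM in the loaded-device libraries, 30.9, 32.5 and 30.6 CPM in the empty-device libraries and 65.1, 61.3 and 62.5 CPM in the untreated libraries. Its groups did not overlap, with untreated skin highest (-0.34 ± 0.034 for the loaded device and -1.01 ± 0.035 for the empty one). Cenpe, the gene of a kinetochore motor, had 42.96, 43.99 and 41.6 CPM with the loaded device, 24.2, 23.9 and 22.4 CPM with the empty device and 49.6, 45.5 and 47.5 CPM untreated. Its rise with the loaded against the empty device was the largest of the 40 members (0.87 ± 0.040, edgeR adjusted p = 4.51e-16).

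Nusap1, which encodes a microtubule-bundling protein, changed by -0.41 ± 0.039 for the loaded device and -1.05 ± 0.040 for the empty one against untreated. The kinesin gene Kif20a changed by -0.40 ± 0.040 and -1.01 ± 0.041, and Cdc23 overlaps 26.9% of it on the other strand. Cdc23, with 30130 counts in all against 33717 for Kif20a, changed by 0.15 and -0.16 in the same comparisons, and by 0.31 between the devices. Birc5, the gene of survivin in the chromosomal passenger complex, changed by -0.28 ± 0.049 and -0.83 ± 0.051. The spindle motor gene Kif11 changed by -0.13 ± 0.034 and -0.89 ± 0.035, and Cenpf, the gene of a kinetochore protein, by -0.10 ± 0.036 and -0.91 ± 0.037. Kif23, a kinesin gene of the cell's final separation, did not pass with the loaded device (-0.0087 ± 0.035, edgeR adjusted p = 0.874) and fell with the empty device (-0.53 ± 0.035). The small falls with the loaded device depended on the processing. Kif11 and Cenpe lost the call with library size alone (-0.00021 and -0.016) and after the GC offset (-0.011 and -0.038). Cenpf lost it with DESeq2 size factors, upper-quartile scaling, no filter or DESeq2's Wald test, and without loaded-device library 1, 2 or 3, empty-device library 3 or untreated library 1 (-0.096, -0.097, -0.098, -0.083 and -0.053), and it turned sign with library size alone (0.037) and after the GC offset (0.0094).

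Top2a encodes the topoisomerase that untangles replicated chromosomes, on chromosome 11 from 98883769 to 98915015 in mm39. It stood at 192, 193 and 187 CPM in the loaded-device libraries, 109, 111 and 109.9 CPM in the empty-device libraries and 244, 222 and 225 CPM in the untreated libraries. Untreated skin was highest and the empty device lowest, with no overlap (-0.27 ± 0.034 for the loaded device and -1.06 ± 0.035 for the empty one against untreated). Mki67, on chromosome 7 from 135291513 to 135318090 in mm39, stood at 201, 201 and 190 CPM in the loaded-device libraries, 116, 111 and 107 CPM in the empty-device libraries and 213, 195 and 205 CPM in the untreated libraries. Mki67 fell under the empty device (-0.88 ± 0.037, edgeR adjusted p = 8.99e-17), whereas the loaded-device and untreated libraries overlapped (-0.050 ± 0.037, adjusted p = 0.302). With the loaded against the empty device Top2a changed by 0.79 ± 0.035 and Mki67 by 0.83 ± 0.037.

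**Figure D2:**
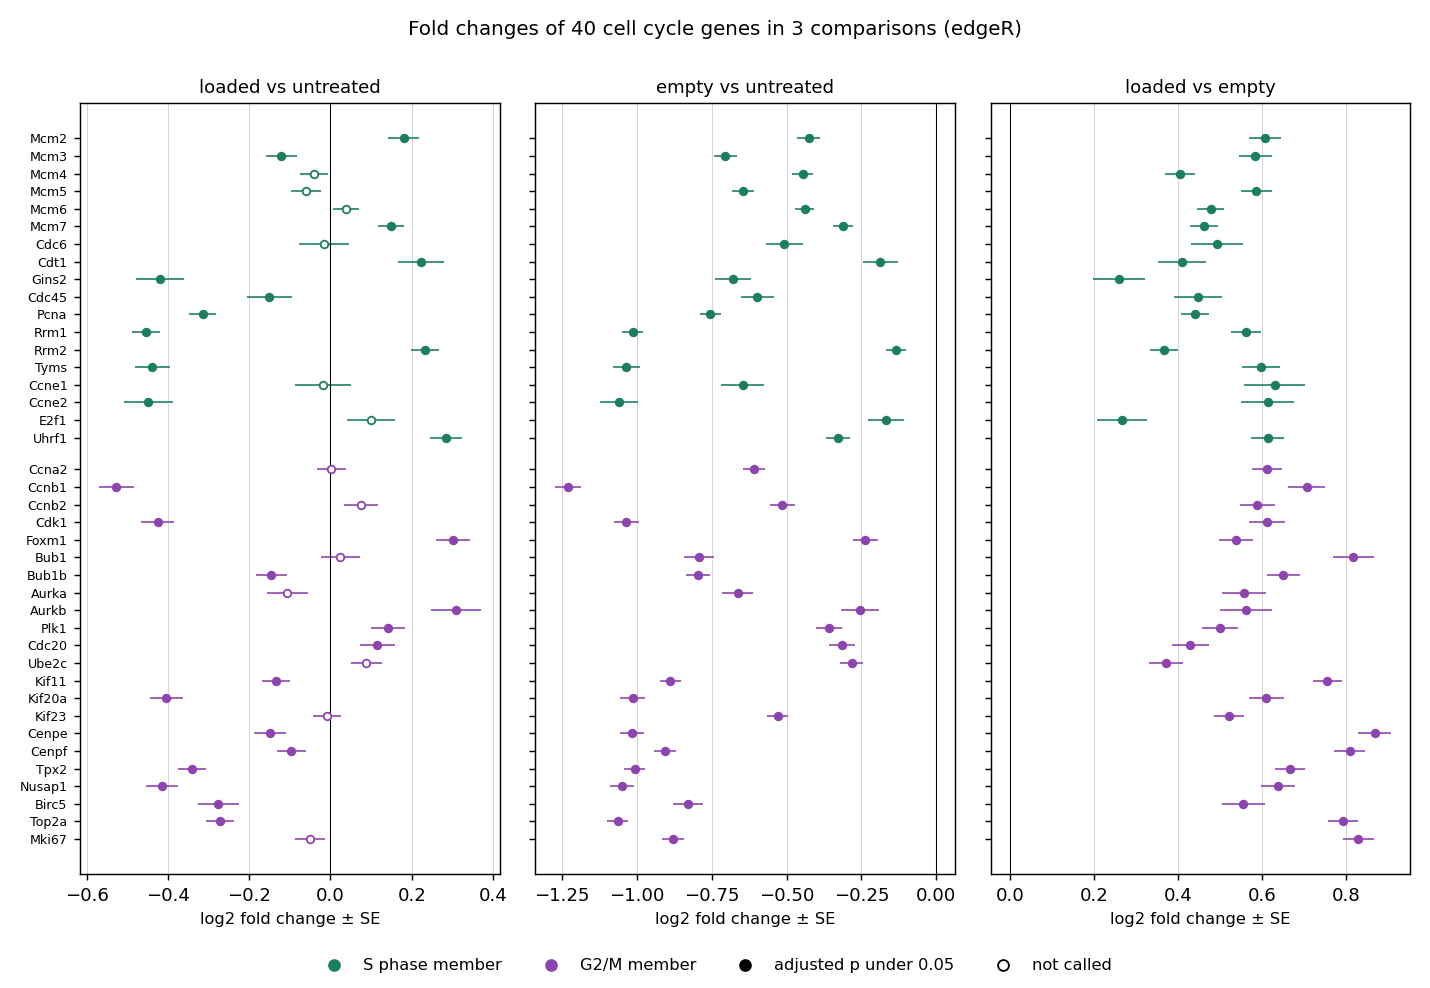
Log2 fold change with its standard error (x axis) of each member (rows) in the 3 comparisons, with S phase members in green above G2/M members in purple; filled points passed an edgeR adjusted p under 0.05. All 40 members are filled in the panels for empty against untreated (all below 0) and loaded against empty (all above 0), and the panel for loaded against untreated has points on either side of 0.

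The replication and mitosis members were next compared with each other. The mean log2 CPM of the 18 S phase members was 4.74, 4.73 and 4.71 with the loaded device, 4.22, 4.29 and 4.21 with the empty device and 4.82, 4.79 and 4.79 untreated. That of the 22 G2/M members was 5.29, 5.30 and 5.28 with the loaded device, 4.65, 4.70 and 4.62 with the empty device and 5.43, 5.37 and 5.38 untreated. Both means were lowest with the empty device. They were highest in untreated skin on this scale, but with an offset for GC content given further on, the loaded-device and untreated libraries overlapped. The S phase mean was then 4.71 to 4.74 with the loaded device and 4.74 to 4.76 untreated, and the G2/M mean 5.28 to 5.31 with the loaded device and 5.29 to 5.31 untreated. Library size alone turned the loaded against untreated medians positive, as given above.

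Over all members the G2/M mean moved further than the S phase mean, though not within every range of GC content, as given further on. For the empty device it was 0.74 below untreated skin on the log2 scale, against 0.56 for S phase. The S phase mean minus the G2/M mean was -0.55, -0.56 and -0.57 with the loaded device, -0.42, -0.41 and -0.41 with the empty device and -0.61, -0.58 and -0.59 untreated. The 3 groups did not overlap in this difference, which stood 0.18 higher with the empty device than untreated and 0.15 lower for the loaded device than for the empty one. No p-value is given for a mean over chosen genes.

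**Figure D3:**
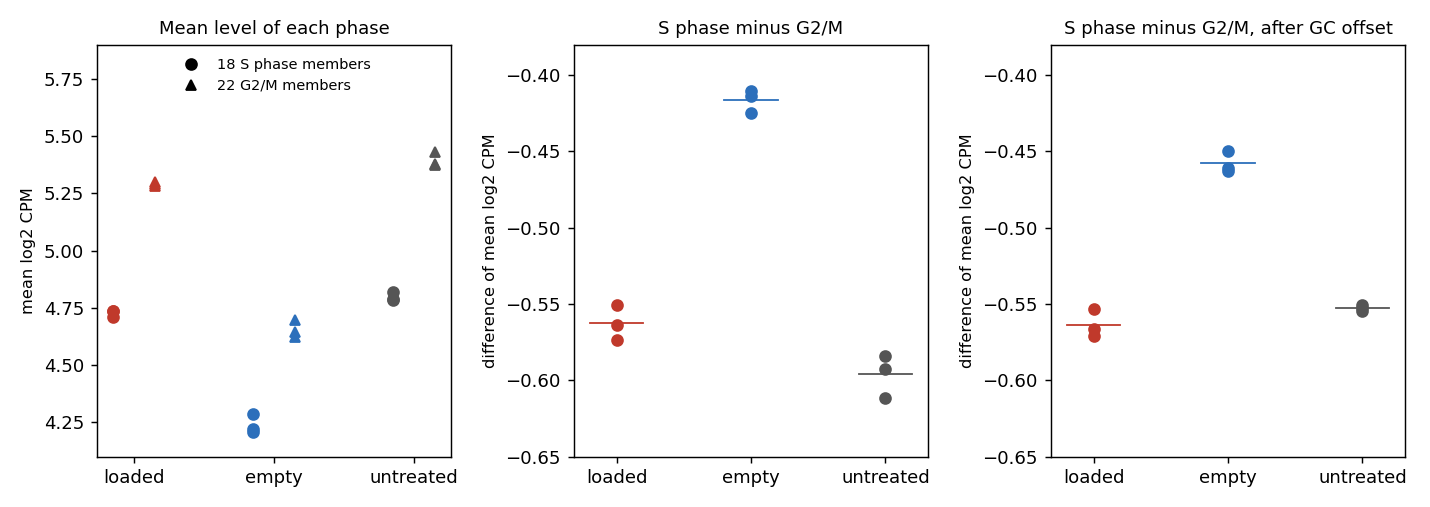
Mean log2 CPM of the S phase and G2/M members in each library (left panel), and the S phase mean minus the G2/M mean without (middle) and with (right) an offset for GC content, for the loaded device, the empty device and untreated skin; each point is a library and each bar a group mean. The empty-device libraries lie between -0.42 and -0.41 in the middle panel and between -0.46 and -0.45 in the right one, above the other groups in both.

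The size of a member's change was related to the base composition of its transcript. GC content was read from the longest GENCODE vM21 transcript, which gave a value for all 40 members. It ran from 36.3% to 58.8%, with medians of 50.7% for S phase and 47.6% for G2/M members. The 9 members that rose with the loaded device against untreated had a median GC content of 54.6%, and the 18 that fell one of 46.4%. Their median spans were 7.84 and 22.9 kb. Across the 40 members, Spearman's rho between GC content and log2 fold change was 0.57 for loaded against untreated, 0.70 for empty against untreated and -0.53 for loaded against empty. Between genomic span and log2 fold change it was -0.32, -0.48 and 0.58 in the same order. This describes the members, which share libraries and are not replicates.

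Other genes showed a like but smaller relation. Among all tested genes of at least 1 CPM, the median log2 fold change with the empty device against untreated was -0.19 for a GC content of 40 to 45% (2926 genes) and 0.11 for 55% and over (3833 genes). The 8 and 6 members in the same ranges had medians of -1.02 and -0.30. For the loaded device against untreated, the medians in these ranges were -0.094 and 0.096 over all such genes and -0.21 and 0.13 over the members.

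**Figure D4:**
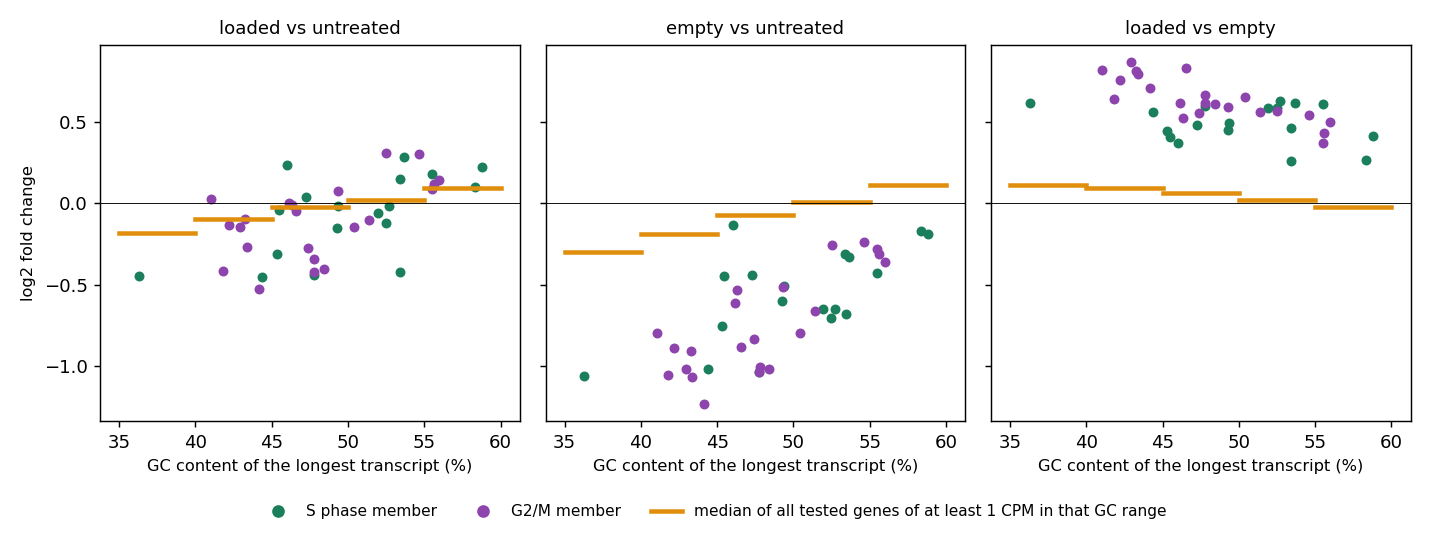
Log2 fold change (y axis) of each member against the GC content of its longest transcript (x axis) in the 3 comparisons, with S phase members in green, G2/M members in purple and, as orange bars, the median of all tested genes of at least 1 CPM in each GC range. Most members lie far below the bars in the panel for empty against untreated and far above them in that for loaded against empty, and around them in that for loaded against untreated.

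A fit with an offset for GC content in each library, chosen after the data were seen, was therefore set beside the main one. It covers GC content alone, and span was not corrected for. With the empty device against untreated, 17 of 18 S phase members and all 22 G2/M members still fell (medians -0.50 and -0.69), Rrm2 losing its call. This fit called 6122 of the 26081 tested genes lower there. Between the devices all 18 and all 22 still rose (medians 0.46 and 0.55), where 5207 of the tested genes did. For the loaded device against untreated, 6 and 5 rose and 6 and 8 fell, and the medians were 0.0015 and -0.0048. Of the tested genes, 5498 rose and 5492 fell in that comparison. Mcm6, Ccnb2 and Bub1 gained a call there, all higher, and Cdc45, Cdc20, Kif11, Cenpe and Cenpf lost theirs.

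The S phase minus G2/M difference also became smaller with this offset. It was -0.55, -0.57 and -0.57 with the loaded device, -0.46, -0.46 and -0.45 with the empty device and -0.55, -0.55 and -0.55 untreated. The empty-device libraries still lay apart, now 0.095 above untreated skin, while the loaded-device and untreated libraries overlapped. Within GC ranges the order of the phases varied in the main fit. With the empty device against untreated, S phase and G2/M medians were -0.51 and -0.85 at 45 to 50% (7 and 8 members). They were -0.65 and -0.46 at 50 to 55% (6 and 4) and -0.19 and -0.31 at 55% and over (3 each). At 40 to 45% they were -1.01 and -1.02 (1 and 7). Between the devices they were 0.45 and 0.61, 0.58 and 0.56, 0.41 and 0.43, and 0.56 and 0.79 in that order. The part of transcript composition in the remaining changes was not tested.

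Lists of other cell cycle genes, which hold no member, gave their own counts. They were read in the main fit alone and not under other scalings. Of 38 further replication genes, 37 rose and 1 fell with the loaded against the empty device (median 0.47), and 37 fell and 1 rose with the empty device against untreated (median -0.47). Clspn, the gene of a checkpoint adaptor at replication forks, changed by 0.69 ± 0.047 and -0.34 ± 0.048 in these comparisons. Atad2 changed by 0.63 ± 0.037 and -0.40 ± 0.037, and Dbf4, which encodes the activator of the CDC7 kinase, by 0.64 ± 0.042 and -0.53 ± 0.043. Against untreated skin, the loaded device had 10 of the 38 higher and 13 lower (26.3% and 34.2%, median -0.043). Of all tested genes, 19.0% were called higher and 23.3% lower there. The share called higher between the devices was 22.9%, and that called lower with the empty device against untreated was 28.1%.

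Of 47 further mitosis genes, all 47 rose with the loaded against the empty device (median 0.58), and 45 fell and none rose with the empty device against untreated (median -0.74). The condensin gene Smc4 changed by 0.59 ± 0.032 and -0.70 ± 0.032 in these comparisons, the spindle pole gene Aspm by 0.68 ± 0.039 and -0.86 ± 0.039 and the kinesin gene Kif15 by 0.78 ± 0.045 and -0.73 ± 0.045. Against untreated, 13 of the 47 rose under the loaded device and 24 fell (27.7% and 51.1%, median -0.11), where 19.0% and 23.3% of all tested genes did.

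A list of G1 cyclins, their kinases, E2F factors and related regulators had another pattern. It holds 15 genes: Ccnd1, Ccnd2, Ccnd3, Cdk2, Cdk4, Cdk6, E2f2, E2f3, E2f7, E2f8, Cdc25a, Myc, Mycn, Mybl2 and Skp2. It is not a list of G1 activators alone, since Mybl2, for example, encodes B-MYB. Of the 15, 11 rose and none fell with the loaded device against untreated (median 0.23), where 19.0% of all tested genes were called higher. With the loaded against the empty device 12 rose and 1 fell (median 0.42), where 22.9% and 18.5% of all tested genes did. With the empty device against untreated 2 rose and 7 fell (median -0.099), where 20.2% and 28.1% did. Mycn, the gene of a growth-promoting transcription factor, changed by 0.43 ± 0.056 with the loaded and -0.47 ± 0.059 with the empty device against untreated. Ccnd2, a cyclin D gene, changed by 0.23 ± 0.038 and -0.49 ± 0.038, and Ccnd1, another, by 0.090 ± 0.031 and -0.34 ± 0.032.

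Genes listed as cell cycle brakes moved in both directions. Listed are Cdkn1a, Cdkn1b, Cdkn1c, Cdkn2a, Cdkn2b, Cdkn2c, Cdkn2d, Rb1, Rbl1, Rbl2, E2f4 and E2f5. The rest are Lin9, Lin54, Lin37, Fzr1, Btg1, Btg2 and Tob1. This is not a list of brakes alone, Lin9, Lin54 and Lin37 being examples. Of 19 such genes, 6 rose and 7 fell with the loaded against the empty device (median 0.024), 8 rose and 4 fell with the loaded device against untreated (0.026), and 9 rose and 8 fell with the empty device against untreated (0.046). Of all tested genes, 22.9% rose and 18.5% fell in the first of these comparisons, 19.0% and 23.3% in the second, and 20.2% and 28.1% in the third. The 4 brakes that fell with the loaded device against untreated are 21.1% of the list, near that background. Cdkn1a, the gene of the CDK inhibitor p21, rose under the loaded device (0.19 ± 0.032) and the empty device (0.10 ± 0.032) against untreated. Cdkn2c, the gene of the CDK4 and CDK6 inhibitor p18, changed by -0.21 ± 0.036 and -0.31 ± 0.036. Rb1, the retinoblastoma gene, changed by 0.12 ± 0.031 and -0.11 ± 0.031, and its relative Rbl1 by 0.24 ± 0.041 and -0.14 ± 0.042. Rbl2, the third of that family, changed by 0.16 ± 0.037 and 0.29 ± 0.037. Fzr1, which encodes a partner of the ligase that removes cyclins in G1, changed by 0.10 ± 0.036 and 0.23 ± 0.036, and the antiproliferative gene Tob1 by 0.15 ± 0.031 and 0.28 ± 0.031. Cdkn2b, the gene of the CDK inhibitor p15, did not pass with the loaded device (-0.078 ± 0.038, edgeR adjusted p = 0.101) and rose with the empty device (0.23 ± 0.037).

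**Figure D5:**
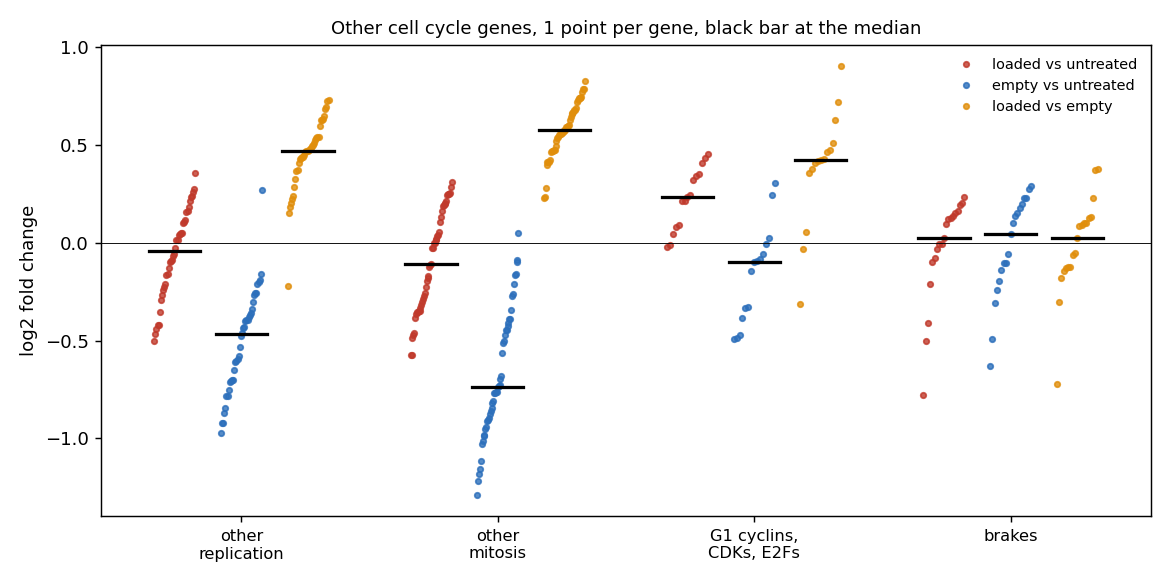
Log2 fold change (y axis) of each gene in 4 lists of other cell cycle genes (x axis), with red for loaded against untreated, blue for empty against untreated and orange for loaded against empty; black bars are medians. The orange medians of the replication, mitosis and G1 lists lie at 0.47, 0.58 and 0.42, and those of the brakes at 0.024.

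Markers of hair follicle and basal epidermal cells were read beside the members. For all marker lists, the shares of all tested genes called in each comparison are those given above for the brakes. The hair list joins 8 regulators expressed in the hair matrix (Lef1, Msx1, Msx2, Dlx3, Foxn1, Hoxc13, Shh and Wnt10b) with 5 keratin genes of the differentiating inner root sheath and hair shaft (Krt25, Krt27, Krt71, Krt31 and Krt35). All 13 rose with the loaded device against the empty one (median 0.77) and against untreated (median 0.39), a comparison in which the members divided, and 12 fell with the empty device against untreated. Split in this way after the values were seen, the regulators summed to 725 to 761 CPM with the loaded device, 463 to 517 CPM with the empty device and 551 to 585 CPM untreated. Lef1, a transcription factor gene, had 69.9, 66.9 and 64.4 CPM with the loaded device, 35.9, 37.6 and 34.8 CPM with the empty device and 41.6, 42.5 and 44.6 CPM untreated. The keratins summed to 18772 to 19999 CPM with the loaded device, 10679 to 12227 CPM with the empty device and 16599 to 16841 CPM untreated, and they mark cells that have left the dividing matrix. No marker of any list named here was at 0 in a library, except Mzb1 of the B and plasma cell list, which was at 0 in every library.

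Of 7 basal keratinocyte genes, none rose and 3 fell with the loaded against the empty device (median -0.075), none rose and 4 fell with the loaded device against untreated (median -0.084), and 2 rose and 3 fell with the empty device against untreated (median -0.066). Their sums were 10135 to 10607 CPM with the loaded device, 10817 to 11312 CPM with the empty device and 14198 to 14930 CPM untreated, and the gap to untreated skin lay mainly in 1 gene, Krt14. Krt14 encodes a keratin of the basal layer and had 3446, 3628 and 3668 CPM with the loaded device, 3945, 4225 and 4022 CPM with the empty device and 7725, 7094 and 6849 CPM untreated. Its partner keratin gene Krt5 averaged 4958 ± 103 CPM with the loaded device, 4995 ± 105 CPM with the empty device and 5416 ± 135 CPM untreated. Injury-associated keratinocyte genes fell in 8 of 10 cases and rose in 1 with the loaded against the empty device, and their sums were 2273 to 2312, 2521 to 2807 and 4131 to 4475 CPM in the same order.

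T cell markers stood at 27.7 to 29.7 CPM in sum with the loaded device, 34.5 to 37.5 CPM with the empty device and 43.7 to 49.1 CPM untreated, and none of the 10 rose in any comparison. Macrophage markers stood at 158 to 172, 215 to 219 and 241 to 255 CPM in the same order. The T cell and macrophage lists were lower in sum under the loaded device than under the empty one, the opposite of the members. Between the devices 5 of the 10 T cell and 6 of the 8 macrophage markers fell, and none rose. B and plasma cell markers, another immune list, were lowest with the empty device, as the members were. They summed to 6.48 to 7.11, 3.65 to 5.19 and 6.33 to 7.27 CPM in the same order. Of the 5 tested, 1 rose and none fell between the devices. Fibroblast markers stood at 1018 to 1048 CPM with the loaded device, 1319 to 1421 CPM with the empty device and 1531 to 1584 CPM untreated. Of these 7, 6 fell and 1 rose with the loaded against the empty device, all 7 fell with the loaded device against untreated, and 6 fell with the empty device against untreated. All 6 melanocyte and all 6 adipocyte markers rose with the loaded against the empty device, as the members did. Of the melanocyte markers, 3 rose and 2 fell with the loaded device against untreated and all 6 fell with the empty device. Of the adipocyte markers, 4 rose and none fell with the loaded device against untreated, and 1 rose and 5 fell with the empty device. Their sums were 538 to 590 and 777 to 801 CPM with the loaded device, 272 to 302 and 447 to 493 CPM with the empty device and 523 to 547 and 711 to 767 CPM untreated. Skeletal muscle markers stood at 6728 to 7180 CPM with the loaded device, 9269 to 10838 CPM with the empty device and 7365 to 7595 CPM untreated. Of these 8, 1 rose and 7 fell with the loaded against the empty device, 1 rose and 6 fell with the loaded device against untreated, and 7 rose and 1 fell with the empty device against untreated. The 1 against the rest was Myh4, a fast myosin gene, each time (1.20 ± 0.063, 0.26 ± 0.062 and -0.93 ± 0.062 in the same order). The part of tissue composition in the changes of the cell cycle genes was not tested.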

How the data were processed

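Skin RNA was sequenced in 9 libraries, in 3 groups of 3 taken from the treatment labels. The submitters' processing notes name HISAT2, featureCounts and the build mm39. The deposited values are raw counts per gene, per the file headers. The sources used here do not state tool versions, the annotation, the strand setting or the counting unit. In the deposited table, gene length equalled the whole span for 99.9% of genes, so intronic reads were counted.

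The filterByExpr filter, at its minimum count of 10 and total of 15, kept 26081 of 42688 genes with a count. They held at least 99.9% of counts. TMM-scaled counts of all 9 libraries were fitted with edgeR 4.0.16 in R 4.3.3 (robust quasi-likelihood test, 1 coefficient per group, common biological coefficient of variation 0.0390). Benjamini-Hochberg adjusted p-values under 0.05 over all tested genes are called. Means of log2 CPM use a prior count of 2. The fit was also run on counts simulated from its own means, library sizes and spread. Such a run cannot bear on the choice of scaling or on whether replicates are technical.

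The members and lists were chosen with earlier results of these data known. All 40 members are named. From each other cell cycle list the text names the 3 genes of smallest p between the devices, and the brakes called in all 3 comparisons. Promoter windows are RefSeq's (GRCm38.p6), and gene positions are those of the deposited table. Alternatives were other scalings and filters, DESeq2 1.42.0, limma-voom (limma 3.58.1), a fit of just the 2 groups, a replicate block, leaving out each library, another prior count, single motifs and a GC offset. The offset is a lowess curve, per library, of each gene's log2 CPM minus its mean over all libraries, against GC content. It was fitted over the 16376 genes of at least 1 CPM with a value (97.4%), and it was chosen after seeing the data.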

Additional observations from a re-analysis of the deposited data

How the results depend on the processing

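Between the loaded and the empty device, all 40 members were called higher under each of the 19 alternative fits. Against untreated skin the empty device kept its direction in all members except Rrm2 (0.00071 after the GC offset). Log2 fold changes follow, and the cause of a changed value was not tested.

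For the empty device against untreated, the S phase and G2/M medians were -0.45 and -0.71 with library size alone, -0.48 and -0.74 with upper-quartile scaling, -0.51 and -0.77 with a stricter filter, -0.50 and -0.69 with the GC offset, and -0.52 and -0.78 with DESeq2 size factors, DESeq2's Wald test or a fit of just the 2 groups. Leaving out 1 library at a time gave -0.58 to -0.50 and -0.85 to -0.77. The 18 S phase members called lower there were 15 with library size alone or upper-quartile scaling, 16 with a fit of just the 2 groups, 17 with DESeq2 size factors, no filter, a stricter filter, DESeq2's Wald test or the GC offset, and 15 to 18 when 1 library was left out. For the loaded against the empty device they were 0.51 with library size alone for S phase, 0.43 and 0.56 with upper-quartile scaling, and 0.45 and 0.57 with a stricter filter. Leaving out 1 library at a time gave 0.44 to 0.51 and 0.57 to 0.66, and the GC offset gave 0.46 and 0.55.

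The loaded device against untreated depended most on scaling. Library size alone moved the median of all tested genes to 0.12 there and to 0.088 for the empty device against untreated. It called 8487 genes higher and 3973 lower, with 8 S phase and 9 G2/M members higher and 7 G2/M members lower, and gave medians of 0.10 for S phase and 0.032 for G2/M. Signs then turned for Mcm3 (0.012), Mcm4 (0.091), Mcm5 (0.072), Cdc6 (0.12), Ccne1 (0.12), Aurka (0.027), Kif23 (0.12), Cenpf (0.037) and Mki67 (0.083). Of these, Mcm4 and Kif23 were called higher. Mcm6 (0.17), E2f1 (0.23), Ccna2 (0.14), Ccnb2 (0.21), Bub1 (0.16) and Ube2c (0.22) also gained a call, all higher. After the GC offset the medians were 0.0015 for S phase and -0.0048 for G2/M, and signs turned for Mcm4 (0.027), Cdc6 (0.015), Kif23 (0.045), Cenpf (0.0094) and Mki67 (0.00098). Upper-quartile scaling turned Cdc6 (0.0039), Ccne1 (0.0014) and Kif23 (0.011). Kif23 also turned with DESeq2 size factors (0.0052), a stricter filter (0.00020), DESeq2's Wald test (0.0052) and a fit of just the 2 groups (0.0021). Leaving out 1 library at a time gave 2 to 5 G2/M members higher, the 2 without loaded-device library 2, and G2/M medians of -0.12 to -0.066. It also gave ranges that crossed 0 for Cdc6 (-0.054 to 0.023), Ccne1 (-0.052 to 0.024), Ccna2 (-0.012 to 0.016), Bub1 (-0.0058 to 0.061) and Kif23 (-0.032 to 0.010). None of these 5 was called in the first place.

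The S phase minus G2/M difference with the GC offset was -0.011 for loaded against untreated, 0.095 for empty against untreated and -0.11 for loaded against empty. With TTCCCGC alone, an E2F motif was in 41.2% of S phase windows, 0% of G2/M windows and 4.60% of all windows. With TTTGAA alone, a CHR was in 11.8%, 70.6% and 17.9% of them.

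Correlations of deviations between libraries with the same replicate number were -0.019 to 0.015 over 9 pairs, against -0.023 to 0.031 for other pairs. For 0 of 9 libraries was its own number the best match in both other groups at once. Loaded-device library 2 and untreated library 2 did correlate best with each other (0.015). The numbers thus gave no sign of a pairing across the groups. A replicate block changed the call of no member, with 10960, 12490 and 10753 genes called in place of 11024, 12597 and 10805 for loaded against untreated, empty against untreated and loaded against empty. With 3 libraries in each group and no link from library to animal, the small fold changes between the loaded device and untreated skin are the least certain values.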
